A study of Cenchrus purpureus with 8 samples.

Results

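The 200 loci described here were those with the most reads in young stem of napiergrass (Cenchrus purpureus), out of 66981 loci in 8 RNA-seq libraries. They were chosen by their measured values: reads were summed over the transcripts of a locus, divided by the total of the library and expressed as counts per 1e6 reads (CPM), and the 200 loci with the highest mean CPM over the 8 libraries were taken from the 66796 loci with fewer than 10 transcripts. The mean level was thus fixed by the choice, and what was free to vary was how the reads were spread over entries, lignin groups, lengths and transcripts. A further 18 loci lay above the same limit but had 10 or more transcripts and were not members. Those 18 took a mean of 9.04% of the reads, most of it from MSTRG.65584.

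Each library came from the uppermost stem nodes of a different entry of an Embrapa germplasm bank. The high lignin entries were BAGCE 5, BAGCE 10, BAGCE 82 and Pioneiro, and the low lignin entries were BAGCE 7, BAGCE 32, BAGCE 96 and BAGCE 98. All 8 shared tissue, RNA extraction and library kit, the labels name no condition besides the lignin class, and that class came from an earlier study of the same laboratory, with no lignin value in the files used here. With 1 library per entry, differences between entries cannot be told apart from differences between plants, harvests or libraries. The p-values only set the difference between lignin groups against the spread of these 8 libraries within their groups. The libraries held 14925391 to 17997520 assigned reads. BAGCE 5, the deepest, had reads at 53653 loci, against 57602 to 60185 in the others. In bulk tissue, fewer cells of a type and less RNA per cell cannot be told apart.

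Lignin is a phenolic polymer laid down in the secondary walls of vessels and fibres, made from phenylalanine through the monolignol pathway and linked in the wall by peroxidases and laccases. The uppermost nodes of a grass stem hold dividing and elongating cells beside the first cells to lignify. In plant tissues of this kind the most plentiful messengers usually serve broad functions such as translation, the cytoskeleton, water channels and wall building. The files pair no identifier with a gene name or sequence, so none of these roles can be given to a locus here, the stem label could not be checked against marker genes, and the loci are called by their identifiers.

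The 200 loci took a mean of 15.7% of all assigned reads. Their share was 15.6% in BAGCE 5, 15.8% in BAGCE 10, 16.3% in BAGCE 82 and 13.7% in Pioneiro among the high lignin entries. It was 17.6% in BAGCE 7, 17.7% in BAGCE 32, 15.8% in BAGCE 96 and 13.5% in BAGCE 98 among the low lignin entries. The highest and the lowest share were both low lignin entries, and the high lignin range lay inside the low lignin range. The next 200 loci in the ranking took 5.55% on average. Reads were also concentrated within the 200: the first 10 took a mean of 4.4%, the first 50 took 8.67% and the first 100 took 11.7%.

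**Figure D1:**
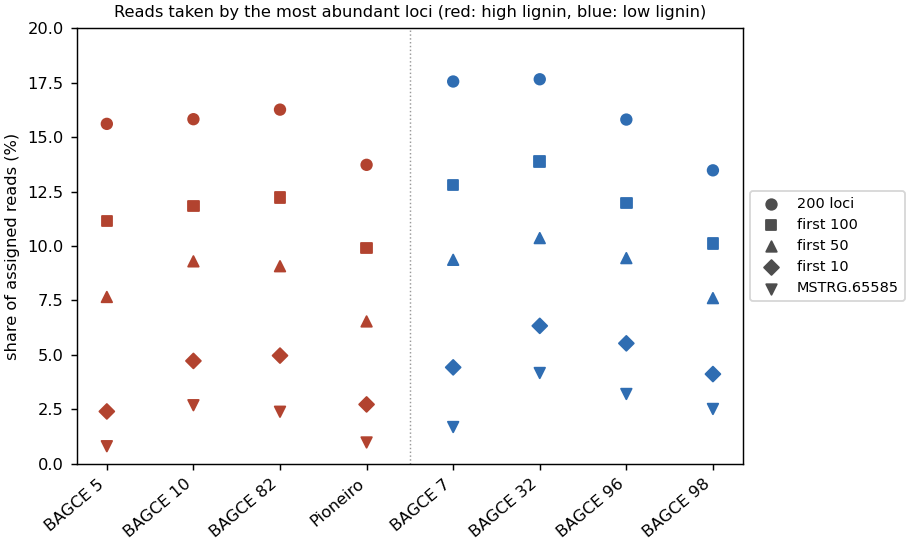
Share of each library's assigned reads (vertical axis, percent) taken by MSTRG.65585 and by the first 10, 50, 100 and 200 loci in each of the 8 entries, with 1 point per library and high lignin in red. The share of the 200 loci ran from 13.5% in BAGCE 98 to 17.7% in BAGCE 32, both low lignin.

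The mean summed share was 15.4% ± 1.12 for the high lignin entries and 16.1% ± 1.96 for the others (SD over 4 entries each). High minus low, this came to -0.768 percentage points, which was smaller than the spread among the low lignin entries. Its sign rested on a single locus: without MSTRG.65585 the shares were 13.6% ± 0.905 in high lignin and 13.2% ± 2.05 in low lignin, and the difference became 0.412. It also moved with single libraries, to -0.225 without Pioneiro, -0.291 without BAGCE 7, -0.256 without BAGCE 32 and -1.65 without BAGCE 98.

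At the limit of the list the mean level changed by little. The last 2 loci inside it, MSTRG.50762 and MSTRG.39997, had mean levels of 338.15 and 338.01 CPM. The first 2 outside it, MSTRG.38735 and MSTRG.35215, had 337.4 and 336.9 CPM. Leaving out any 1 library when the list was drawn kept 187 to 192 of the 200 loci.

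The list depended far more on how transcripts were summed. Of the 200 loci, 155 had 2 or more assembled transcripts, and in these the most abundant transcript held a median of 31.1% of the locus's reads. That share was close to an even division: the median was 51.5% in the 33 loci with 2 transcripts, 35.6% in the 22 with 3, 25.5% in the 27 with 5 and 13.9% in the 7 with 9. Over all 155 loci it was a median of 1.17 times an even share, and over 2 times an even share in 5 loci. How reads that fit several transcripts were counted is not given in the sources used here. If such reads were counted once for every transcript, a summed level grows with the number of transcripts, and that was not tested. When loci were ranked by their most abundant transcript alone, 108 of the 200 remained among the first 200, and the median number of transcripts fell from 3.5 to 1. With shares this near to even, such a ranking almost divides a locus's reads by its number of transcripts. That fall was thus close to fixed in advance and does not show how reads were counted. The most abundant transcripts of the 200 loci alone held a mean of 6.82% of the reads.

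MSTRG.65585 took the most reads, with 6 transcripts of which the most abundant was 1277 bases long. Its level was 8049, 26879.5 and 23883 CPM in BAGCE 5, 10 and 82 and 9778 CPM in Pioneiro. In the low lignin entries it was 16872, 41685, 32046 and 25165 CPM in BAGCE 7, 32, 96 and 98. It was lowest in BAGCE 5 and Pioneiro and highest in BAGCE 32 and 96, and the groups overlapped. Among loci with fewer than 10 transcripts, MSTRG.65585 remained the first when ranked by its most abundant transcript. It was also the first of these in the authors' TPM, an abundance corrected for transcript length, at a mean of 17019 TPM.

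The group means of MSTRG.65585 were 17147 ± 9612 CPM for high lignin and 28942 ± 10519 CPM for low lignin (SD over 4 entries each). The log2 fold change, high against low, was -0.75 (SE 0.62) with an adjusted p of 0.9997 in edgeR's quasi-likelihood test, so the difference did not pass the spread between entries.

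MSTRG.65850, the sixth locus, followed MSTRG.65585 closely from entry to entry. It stood at 849.8, 2731 and 2448 CPM in BAGCE 5, 10 and 82, at 966 CPM in Pioneiro, and at 1758, 3633, 3020.3 and 2918 CPM in BAGCE 7, 32, 96 and 98. The ratio of MSTRG.65585 to MSTRG.65850 in reads stayed between 8.62 in BAGCE 98 and 11.5 in BAGCE 32. Pearson's r of their log2 CPM was 0.99 over the 8 libraries, the highest of any member with MSTRG.65585. MSTRG.30054 at 0.928 and MSTRG.66141 at 0.926 came next. MSTRG.65584, the neighbour by number that was not a member for its 10 transcripts, was less close, at 0.906, and its ratio to MSTRG.65585 ran from 1.87 to 4.13. The files do not show whether these loci share sequence, so reads split or counted between near-identical copies cannot be told apart from separate transcripts.

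Of the other loci among the first 10, MSTRG.58415 stood at 3168, 4304, 4275 and 5007 CPM in BAGCE 5, 10, 82 and Pioneiro, and at 5234, 2339, 3686 and 1674 CPM in BAGCE 7, 32, 96 and 98. Its high lignin entries were tightly grouped, inside the range of the low lignin entries. MSTRG.15278 was at 2766, 4148, 2315 and 2177 CPM in the high lignin entries and at 5182, 2012, 2269 and 1256 CPM in the low lignin entries, again with overlapping groups. BAGCE 7 was the highest and BAGCE 98 the lowest for both loci.

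MSTRG.29155 had 2244, 524, 3015 and 3792 CPM in high lignin and 3804, 2866, 1313 and 3436 CPM in low lignin. BAGCE 10 stood below the other 7 entries. MSTRG.1988, the one locus of the first 10 with a single transcript, of 3330 bases, had 1005, 3382, 3026 and 1093 CPM in high lignin and 3240.5, 861, 6056 and 1169.5 CPM in low lignin. In each group 2 entries lay between 861 and 1169.5 CPM, and BAGCE 96 was the highest. Among loci with fewer than 10 transcripts it was the second when ranked by the most abundant transcript.

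MSTRG.34544 ran from 1056 CPM in Pioneiro to 3624 CPM in BAGCE 98, and MSTRG.33246 from 342 CPM in BAGCE 98 to 2892 CPM in BAGCE 82. The 2 loci were thus opposite in BAGCE 98. MSTRG.27826 was even in 7 entries, at 1189 to 1752 CPM, and stood at 3154 CPM in BAGCE 5. MSTRG.42714 was at 55.6, 319, 3124 and 990.1 CPM in high lignin and at 827, 6195, 817 and 295 CPM in low lignin. Only this one of the first 10 was outside the own first 200 of some libraries, holding a place there in 5 of 8.

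**Figure D2:**
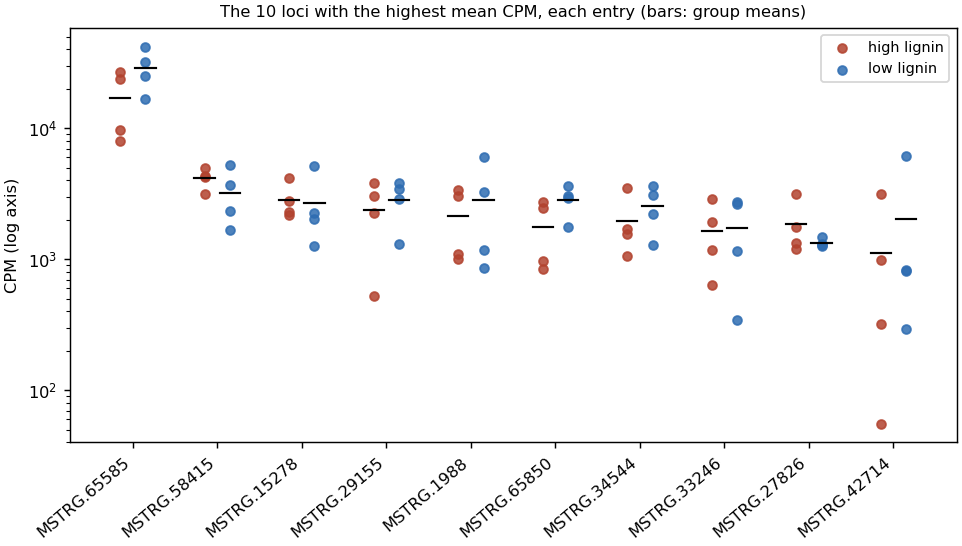
Level in CPM (vertical log axis) of the 10 loci with the highest mean CPM, with 1 point per entry, high lignin in red, low lignin in blue, and black bars for the group means. In each of the 10 loci the points of the groups overlap, and MSTRG.42714 spreads widest, from 55.6 to 6195 CPM.

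Because longer transcripts give more reads, levels of different loci were compared in the authors' TPM summed per locus. In TPM 121 of the 200 loci were also among the 200 highest loci with fewer than 10 transcripts, and 79 were not. The most abundant transcripts of the 121 had a median length of 1318 bases and those of the 79 a median of 2602 bases. The median length over the 200 loci was 1835 bases, close to the 1840 bases of the next 200, against 1434 bases in the 43628 loci of under 10 transcripts with a read in every library. These lengths are not independent of the choice by reads: the 200 loci highest in TPM had a median length of 1061.5 bases.

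The highest in TPM were MSTRG.65585 and then MSTRG.65851, a locus of 2 transcripts whose most abundant one was only 225 bases long, with means of 17019 and 12122 TPM. MSTRG.65851 was fourteenth in reads, and ran from 359 CPM in BAGCE 5 to 3016 CPM in BAGCE 96. Since TPM corrects for length, each read weighs heavily at 225 bases, and the place of MSTRG.65851 in TPM depends on that correction. MSTRG.58415 followed at 4878 TPM and MSTRG.34544 at 3946 TPM. At the other end, MSTRG.8539 reached the list with a transcript of 15697 bases at a mean of only 34.1 TPM, which placed it 4952nd in TPM, and MSTRG.57545 with one of 13096 bases at 68.2 TPM. MSTRG.8539 ranged from 252 to 646 CPM over the entries and MSTRG.57545 from 351 to 1028 CPM.

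**Figure D3:**
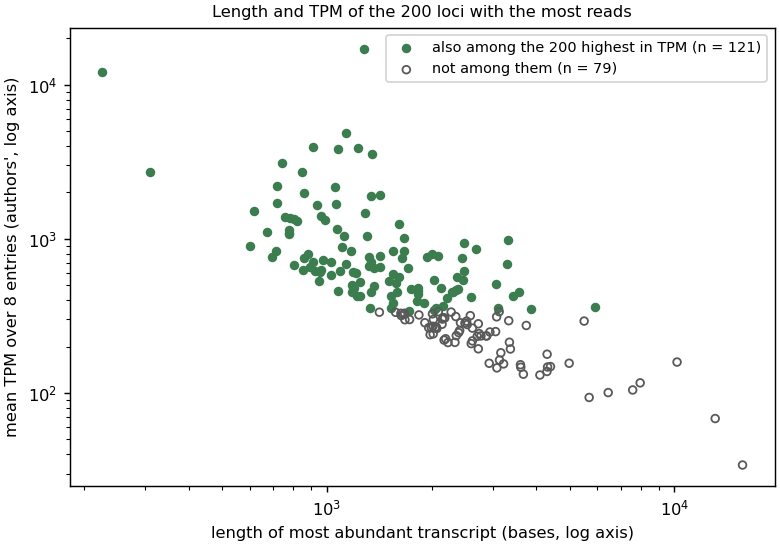
Mean TPM over 8 entries (vertical log axis) against the length of the most abundant transcript (horizontal log axis, bases) for the 200 loci, 1 point per locus. The 79 loci outside the 200 highest in TPM (open points) tend to be longer, with a median of 2602 bases against 1318 for the other 121. The lengths overlap: the 79 start at 1416 bases and the 121 reach 5919.

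The entries shared part of their most abundant loci. Each library's own first 200 held between 111 of the 200 loci, in BAGCE 98, and 148, in BAGCE 96, and together the own lists held 608 loci. A place in all 8 own lists was held by 35 loci, which took 5.1% of the reads in Pioneiro to 8.2% in BAGCE 32. Of the first 50 loci, 27 were among the 35, and the lowest rank of the 35 was 89. At the other end, 23 of the 200 loci were in the own lists of 1 or 2 libraries. In BAGCE 5, 24 of the 200 loci ranked below 1000, and in BAGCE 98, 22 did, against 4 in BAGCE 96.

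The levels of the 200 loci differed widely between entries. The entry with the most reads exceeded the one with the fewest by a median of 5.29-fold (quartiles 3.19 and 10.5), by over 10-fold in 53 loci and by over 100-fold in 9. In 9 loci the ratio was under 2. The next 200 loci were much alike in this, with a median of 4.95-fold, 48 loci over 10-fold, 6 over 100-fold and 19 under 2. The SD of log2(CPM + 1) over the 8 entries had a median of 0.85, against 0.78 in the next 200 loci and 0.62 in the 46894 loci tested for lignin. An arithmetic mean lets a locus enter through 1 high entry, so this spread is a description and not independent of the choice. Among the 9649 tested loci with a mean of at least 20 CPM the median was 0.7. In reads the smallest value of a member in a library was 1, and 3 loci had under 100 reads in some library. The median of the lowest counts was 3293 reads, so that counting error was small beside the spread for most.

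The steadiest were MSTRG.8617, MSTRG.6255, MSTRG.6547 and MSTRG.22283. MSTRG.8617 was at 528, 467, 562 and 545 CPM in high lignin and at 416, 410.4, 499 and 611 CPM in low lignin, a ratio of 1.49 between the extremes. MSTRG.6255 lay between 477 and 761 CPM, MSTRG.6547 between 373 and 617 CPM and MSTRG.22283 between 368 and 631 CPM. All 4 had overlapping groups, and their ratios were 1.49 to 1.71.

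MSTRG.901 differed most. It had 4 and 1 reads in BAGCE 5 and 10, 843 in BAGCE 82 and 436 in Pioneiro, and 536, 5807, 10814 and 24286 reads in BAGCE 7, 32, 96 and 98. In CPM these were 0.222, 0.056, 54.7 and 25.1 in high lignin and 31.7, 355, 637 and 1627 in low lignin. It was nearly without reads in 2 high lignin entries, and BAGCE 7 lay below BAGCE 82. The ratio of BAGCE 98 to BAGCE 10 rests on 1 read: its exact 95% interval for counting error ran from 5211 to 1146900.

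MSTRG.41339 was at 1.67, 79.5, 1032 and 25.4 CPM in high lignin and at 24.2, 1400.4, 118 and 161 CPM in low lignin. MSTRG.27287 was at 10.7, 62.8, 787 and 220.3 CPM in high lignin and at 288, 2989, 169.8 and 134 CPM in low lignin. For both BAGCE 32 and BAGCE 82 were the highest and BAGCE 5 was the lowest, as for MSTRG.42714. MSTRG.43756 had 5.11 CPM in BAGCE 5, 135 in BAGCE 98 and 1788 in BAGCE 10, with the other 5 entries between 165 and 1586 CPM.

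In 9 loci a single entry held over 50% of the CPM summed over entries: Pioneiro in 5, BAGCE 32 in 3 and BAGCE 98 in 1. MSTRG.2791, sixteenth in reads and named after its values were seen, was one of the 5. It stood at 6138 CPM in Pioneiro, at 1892 CPM in BAGCE 5 and at 187 to 930.4 CPM in the other 6. The highest entry exceeded the next by over 2-fold in 19 of the 200 loci.

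Entries differed in how often they held the extremes. BAGCE 7 was the highest entry for 42 loci and BAGCE 5 for 41. BAGCE 98 was the lowest for 53 loci, BAGCE 5 for 43, BAGCE 96 for 5 and BAGCE 7 for 4. BAGCE 5 was thus often at either end, and it was so over all tested loci as well: it was the highest entry in 16.3% of them and the lowest in 25.7%, against 20.5% and 21.5% of the 200. BAGCE 7 was the highest in 8.36% of all tested loci, against 21% of the 200, and the lowest in 10.3%, against 2%. BAGCE 98 was the highest in 22.9% of all tested loci and the lowest in 9.46%, against 9.5% and 26.5% of the 200. The 200 were chosen by CPM in these libraries, so these contrasts with all tested loci are not independent of the choice. The 200 together took 17.6% of the reads in BAGCE 7 and 13.5% in BAGCE 98. With library sizes adjusted by TMM, a scaling that centres most loci, BAGCE 98 was the lowest entry for 72 of the 200 loci. Pioneiro, the lowest for 22 loci by total reads, was then the lowest for 36, and BAGCE 5 for 35. BAGCE 7 was the highest for 46 loci and BAGCE 5 for 42, and BAGCE 10 rose from 21 to 35. The matching shares of all tested loci with TMM-adjusted sizes are not given here. These shifts are therefore not read as a trait of the 200.

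Compared in pairs, BAGCE 82 and BAGCE 96 were the most alike over the 200 loci. Their median difference was 0.39 on the log2 scale, and 37 loci differed by over 2-fold. BAGCE 5 and BAGCE 98 were the least alike, at a median of 1.33 with 120 loci over 2-fold. In 27 of the 28 pairs the median difference was larger over the 200 loci than over all tested loci. The choice by mean CPM admits loci through 1 high entry, and log2(CPM + 1) narrows differences at low levels. That count is thus a description and not independent of the choice. Over the 200 loci the mean of the median differences was 0.867 in the 12 pairs within a lignin group. It was 0.793 in the 16 pairs between groups, so pairs within a group were not the closer ones.

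The first principal component of the 200 loci carried 46.1% of their variance and the second 18.9%. The first set BAGCE 5 at -19.7, Pioneiro at -8.01 and BAGCE 7 at -5.17 against the other 5, at 2.44 to 10.5. On the second BAGCE 98 stood at 11.2 and Pioneiro at 8.18, opposite BAGCE 10 at -9.13. Both sides of each component held entries of both lignin groups.

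The 200 loci did not rise and fall as a body. Pearson's r of log2 CPM over the 8 libraries had a mean of 0.0457 over all 19900 pairs of loci, beside 0.0351 in the next 200 and 0.0422 over all pairs of tested loci. It was over 0.8 in 4.17% of pairs and under -0.8 in 2.04%. The scaling changes this comparison: with TMM-adjusted library sizes the mean was 0.126 for the 200 loci, 0.0897 for the next 200 and 0.00215 for all tested loci. All of these correlations share the same 8 libraries and their totals.

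Clustering by r split the 200 loci into 6 groups with unlike profiles. The clusters were grouped by the same values that describe them, so their profiles are no test. With TMM-adjusted sizes the largest cluster held 97 loci, and the adjusted Rand index between both divisions, which is 1 for identical groups, was 0.594.

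The largest cluster, of 71 loci led by MSTRG.58415, was highest in BAGCE 7 and BAGCE 5 and low in BAGCE 98. It took 7.31% of the reads in BAGCE 7, 5.98% in BAGCE 5 and 1.95% in BAGCE 98. BAGCE 7 was the highest entry for 32 of the 71 loci and BAGCE 5 for 19.

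A second cluster, of 42 loci led by MSTRG.27826, was high in BAGCE 5 and Pioneiro. It took 5.19% and 5.26% of the reads there and 1.34% to 2.6% in the other 6 entries. The highest entry was BAGCE 5 in 19 loci and Pioneiro in 16. MSTRG.2791 and the steady loci MSTRG.8617, MSTRG.6255 and MSTRG.6547 were among its members, so the cluster holds very unequal sizes of change.

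The third cluster, of 39 loci led by MSTRG.65585, was the reverse. Its loci averaged -1.5 in BAGCE 5 and -0.69 in Pioneiro on the log2 scale, relative to the mean of each locus, and 0.85 in BAGCE 10. Its share of reads was 1.86% in BAGCE 5 and 2.41% in Pioneiro and reached 7.3% in BAGCE 96. MSTRG.1988, MSTRG.65850, MSTRG.65851 and MSTRG.34544 belonged to it.

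The fourth cluster, of 32 loci led by MSTRG.29155, was high in BAGCE 32, with 4.35% of the reads, in BAGCE 98, with 3.08%, and in the high lignin entry BAGCE 82, with 2.87%. Its mean log2 deviation was 1.35, 0.56 and 0.65 in these 3. It took 1.18% in BAGCE 5 and 1.15% in BAGCE 10. MSTRG.42714, MSTRG.41339, MSTRG.27287 and MSTRG.901 were in it. This mean profile did not hold for every member, and the mean r within the cluster was 0.49. In BAGCE 98 the log2 deviation was -1.28 for MSTRG.42714 and -0.57 for MSTRG.27287, against 0.86 for MSTRG.41339 and 5.12 for MSTRG.901. The leader MSTRG.29155 was higher in Pioneiro, at 0.75, than in BAGCE 32, at 0.35. MSTRG.42714 and MSTRG.27287 had an r of 0.979 with each other.

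The fifth cluster, of 14 loci led by MSTRG.37044, was low in Pioneiro and BAGCE 96, with 0.335% and 0.423% of the reads, and took 0.605% to 1.48% in the others. MSTRG.37044 itself stood at 411 CPM in Pioneiro and 541 CPM in BAGCE 96 against 827 to 2316 CPM elsewhere. The last cluster held 2 loci, MSTRG.41952 and MSTRG.27900, both highest in BAGCE 10. MSTRG.41952 reached 2963 CPM there and ran from 533 to 1607 CPM in the other 7 entries.

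**Figure D4:**
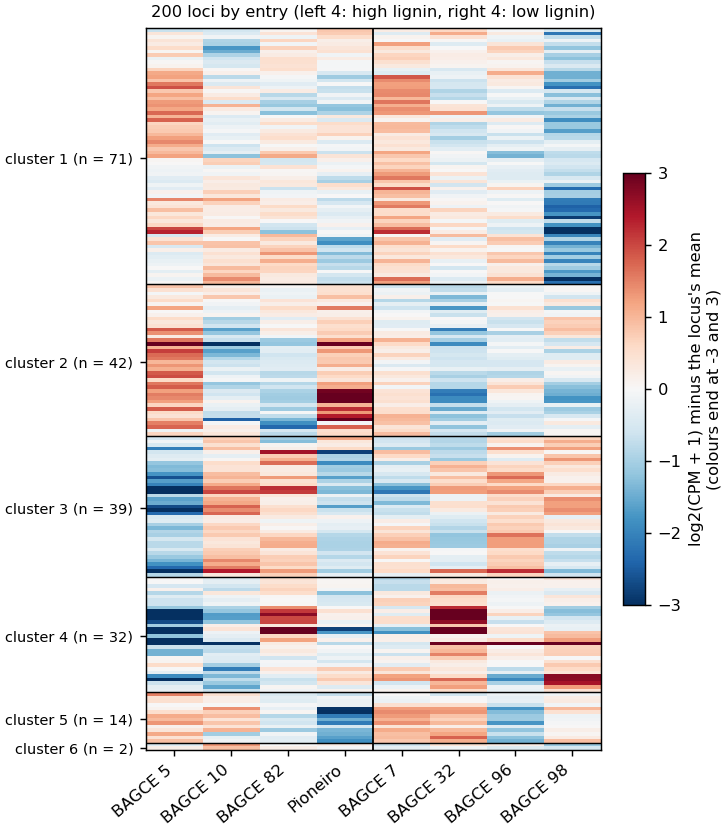
Deviation of log2(CPM + 1) from each locus's mean (colour, from -3 to 3) for the 200 loci (rows, in 6 clusters) in the 8 entries (columns, high lignin left of the line). Cluster 1 is low in BAGCE 98, cluster 2 is high in BAGCE 5 and Pioneiro, and cluster 3 is low in the same 2 entries.

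Only 2 pairs of the 200 loci had consecutive numbers. MSTRG.65850 and MSTRG.65851 had an r of 0.887 over the 8 libraries. MSTRG.17410 and MSTRG.17411 had an r of 0.337: MSTRG.17410 was at 239 to 589 CPM, while MSTRG.17411 stood at 2422 CPM in BAGCE 98 and at 201.9 to 876 CPM in the other 7. Whether numbers follow the order along a chromosome is not given.

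Shares of transcripts within a locus lay close to an even division, as given above, and if reads were counted once for every transcript they could not move far from it. Since the way of counting is not given, their small range between entries cannot be read as steady transcript use. Among the 155 loci with several transcripts the share of the leading transcript moved by a median of 2.25 percentage points between its lowest and highest entry. One transcript led in all 8 libraries in 82 loci, and in 73 another took the lead in at least 1 library, which small shifts can bring about when shares are nearly even. MSTRG.17410 had the widest range. Its leading transcript, MSTRG.17410.4 of 852 bases, held 2.7%, 38.9%, 32.2% and 38.7% of the reads in BAGCE 5, 10, 82 and Pioneiro. In BAGCE 7, 32, 96 and 98 it held 34%, 66.1%, 68.2% and 30.2%.

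Its share was low in BAGCE 5, where the locus had 6623 reads and MSTRG.17410.3 led, and the groups overlapped. The summed level of the locus in BAGCE 5, 368 CPM, lay within that of the other entries. The next widest ranges were 25.1 points in MSTRG.41396, 23.9 points in MSTRG.6085 and 20.8 points in MSTRG.25015. In MSTRG.41396 the leading transcript ran from 17.2% in BAGCE 10 to 42.3% in Pioneiro, where the locus as a whole was lowest, at 105 CPM.

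The study's question, which genes go with lignin production, was put to all loci in 1 fit, and none of the 200 loci passed. All 200 were among the 46894 loci that passed the filter on low counts. With edgeR's quasi-likelihood test 0 of the 200 had an adjusted p under 0.05, as had 0% of all tested loci, and limma-voom also called 0 of the 200 and 0% of all. DESeq2 called 0 of the 200 and 0.049% of all tested loci. It gave no adjusted p for 718 of the 46894 tested loci. Among these were 4 of the 200, MSTRG.24265, MSTRG.27287, MSTRG.56555 and MSTRG.41339, named for that reason. The smallest adjusted p of a member was 0.9997 in edgeR.

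At an unadjusted p under 0.05 in edgeR there were 3 of the 200 loci, 1.5% of them, against 2.47% of all tested loci. All 3 were lower in high lignin, where the share of all loci was 1.5%, and 0 were higher, where it was 0.968%. That count was 14 in DESeq2, against 4.86% of all loci, and 5 in limma-voom, against 2.47%. The share of the 200 was thus near that of all loci in limma-voom, below it in edgeR and, at 7%, above it in DESeq2. The gaps rest on few loci and go opposite ways in edgeR and DESeq2, so they are not read as a trait of the 200. The count in edgeR moved with single libraries, and so did the share of all loci. It was 1 of 200, or 0.5%, without BAGCE 5, BAGCE 32 or BAGCE 98, against 1.33%, 0.963% and 2.05% of all loci tested. It was 6 (3%) without BAGCE 96 against 2.38%, 8 (4%) without BAGCE 82 against 6% and 9 (4.5%) without BAGCE 7 against 4.11%.

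The fitted log2 fold change, high against low, was above 0 in 95 of the 200 loci and below 0 in 105, where 49% of all tested loci were above 0. Its median was -0.05 in the 200 and -0.01 in all. A fitted change of over 2-fold was found in 22 of the 200, or 11%, against 17% of all tested loci. The median 95% interval in limma-voom reached 1.31 to either side of a member's log2 fold change and 1.39 over all loci. For a typical member an estimate of 2-fold would thus have an interval that includes 0.

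**Figure D5:**
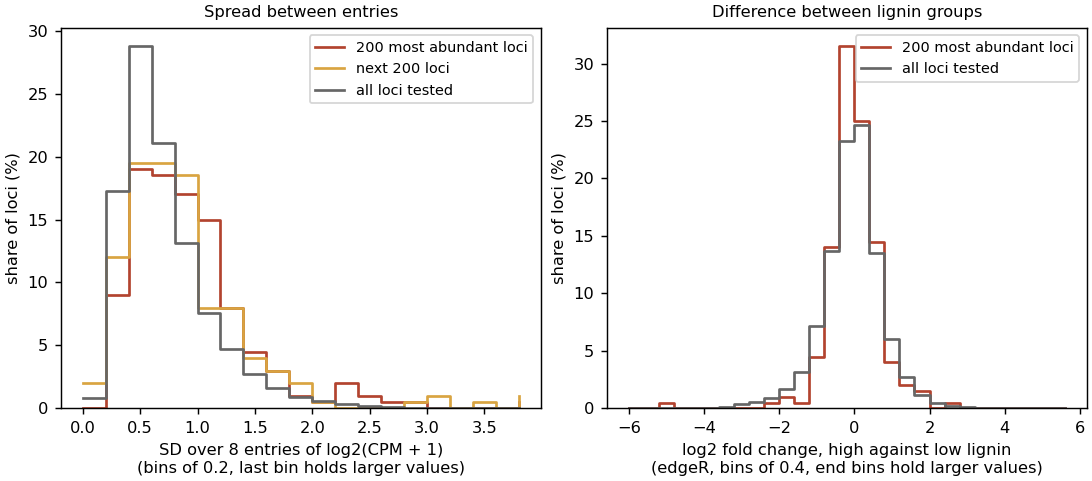
Left, share of loci (percent) by SD of log2(CPM + 1) over the 8 entries for the 200 loci, the next 200 and all 46894 tested loci. Right, share of loci by edgeR log2 fold change of high against low lignin. The 200 loci spread more between entries, with a median SD of 0.85 against 0.62, while their fold changes centre on -0.05.

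The lower locus with the smallest p was MSTRG.901, with group means of 20.03 ± 26 CPM for high lignin and 663 ± 689 CPM for low lignin (SD over 4 entries each). Its log2 fold change was -5.09 (SE 1.9), with an adjusted p of 0.9997 (0.0261 unadjusted) in edgeR's test across all loci. The groups overlapped, as 54.7 CPM in BAGCE 82 exceeded 31.7 CPM in BAGCE 7. The log2 fold change was -6.48 without BAGCE 82, -4.59 without BAGCE 5 or without BAGCE 10, -4.34 without BAGCE 98 and -7.08 in limma-voom. Its adjusted p was 0.407 in DESeq2, the lowest over the alternatives, which reached 0.9999.

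MSTRG.31413 was at 329, 137, 419 and 308 CPM in high lignin and at 364, 950.4, 365 and 964 CPM in low lignin. BAGCE 32 and 98 were well above the other 6, which did not separate by group. Its log2 fold change was -1.2 (SE 0.49), with an adjusted p of 0.9997 in edgeR, and was -0.85 without BAGCE 32. MSTRG.15970, named because only 3 loci passed the unadjusted threshold, had 4437 CPM in BAGCE 98 and 179.9 to 1532 CPM in the other 7. Its log2 fold change was -1.9 (SE 0.8; edgeR adjusted p 0.9997) and became -1.13 without BAGCE 98.

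Among loci higher in high lignin, MSTRG.25145 had the smallest p. It was at 1073, 389.9, 702 and 1383 CPM in high lignin and at 306, 139.5, 642 and 213 CPM in low lignin. BAGCE 96 lay above BAGCE 10, and the other entries separated by group. Its log2 fold change was 1.3 (SE 0.58; edgeR adjusted p 0.9997), and with libraries left out it ran from 1.1 without BAGCE 98 to 1.96 without BAGCE 96.

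The groups did not overlap in 2 of the 200 loci, or 1%, against 1.19% of all tested loci. In both every high lignin entry lay above, which held for 0.614% of all loci, and 0 of the 200 had every one below, which held for 0.578%. MSTRG.16274, whose most abundant transcript is 7582 bases long, was at 1014, 618, 575 and 781 CPM in high lignin and at 367, 320.1, 493 and 569 CPM in low lignin. BAGCE 82 at 575 CPM and BAGCE 98 at 569 CPM nearly met. Its log2 fold change was 0.75 (SE 0.37; edgeR adjusted p 0.9997).

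MSTRG.27900, the other, was at 396, 656, 398 and 346 CPM in high lignin and at 294, 334, 274 and 243 CPM in low lignin. Its log2 fold change of 0.64 (SE 0.42; edgeR adjusted p 0.9997) became 0.32 without BAGCE 10. The count of 2 was near the background, and leaving out any library but Pioneiro changed both. Without Pioneiro the count stayed at 2 (1%), against 2.85% of all tested loci. It was 4 (2%) without BAGCE 5 against 1.8% of all tested loci, 5 (2.5%) without BAGCE 10 against 3.91% and 9 (4.5%) without BAGCE 7 against 5.9%. It was 11 (5.5%) without BAGCE 82 against 4.91% and 12 (6%) without BAGCE 96 against 3.23%. Without BAGCE 32 or BAGCE 98 it was 3 (1.5%), against 1.74% and 3.47%.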

How the data were processed

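Young stem RNA of 8 entries was made into Illumina TruSeq Stranded mRNA libraries, per the labels' protocols. Salmon 0.7.2, StringTie 2.0.4, STAR 2.5.2b and FastQC 0.11.8 are named in the submitters' processing notes. Which step each tool served, and with which annotation and genome, is not given in the sources used here. Per the file headers, the authors deposited an estimated count, an abundance in TPM and other values (length and effective length in bases) for each of 101169 transcripts. The estimated counts deposited by the authors were whole within 0.001 reads in 99.974% of values. They were summed per locus and rounded before tests. The authors' TPM values were summed per locus, used to compare levels between loci, and not tested. CPM in the text is on total reads, log2 values add 1, and TMM factors ran from 0.846 to 1.22.

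Lignin groups were taken from the labels, 4 against 4. The fit was edgeR 4.0.16's two-sided quasi-likelihood test (R 4.3.3; TMM, filterByExpr, robust), with Benjamini-Hochberg adjustment over all 46894 loci, called under 0.05, and it was tested on simulated data. SE is the log2 fold change over the square root of F. Alternatives were limma-voom (limma 3.58.1), DESeq2 1.42.0, RLE scaling, 2 other filters, most abundant transcripts, TPM, other list sizes and left-out libraries. Clusters came from average linkage on 1 minus r, cut to 6 (scipy 1.17.1).

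Members and lists were chosen with earlier results of these data known. Named loci were the first 10 in reads, the ends of the ratio, TPM and transcript-share ranges, the smallest p, the cluster leaders and consecutive pairs. No list of marker or pathway genes could be matched, since identifiers carry no names.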

Additional observations from a re-analysis of the deposited data

Results flagged for a closer look

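Dixon's limit for 4 values was applied to 70 groups, the named loci and the summed share in each lignin group, and 6 held a library beyond it. Over all 200 loci it was 26 of 400 groups, or 6.5%. Chance flags about 1 in 20 groups of normal values. CPM is right-skewed and some loci were named for their wide ratios, so neither count can be set against that rate. BAGCE 32 was the library in 7 of the 26 and BAGCE 7 in 5.

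MSTRG.42714 stood at 6195 CPM in BAGCE 32, with the other low lignin entries at 295 to 827 CPM. MSTRG.27287 stood at 2989 CPM in BAGCE 32, with the others at 134 to 288 CPM. MSTRG.41339 was beyond the limit in both groups, at 1400.4 CPM in BAGCE 32 against 24.2 to 161 CPM, and at 1032 CPM in BAGCE 82 against 1.67 to 79.5 CPM. MSTRG.8539 stood at 646 CPM in BAGCE 98 against 267 to 324 CPM, and MSTRG.27900 at 656 CPM in BAGCE 10 against 346 to 398 CPM. The cause was not tested.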

How the results depend on the processing

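No paired analysis was possible because the 8 entries are all different and share no replicate number in the labels. The count of all loci past the threshold was 0 in edgeR under every setting run (lowest 0, highest 0 with libraries left out) and in limma-voom, and 23 in DESeq2; among the 200 loci it was 0 in each. The difference in summed share, high minus low, ran from -1.65 to -0.225 percentage points with libraries left out and was -3.48 with no limit on transcripts per locus, which admits MSTRG.65584. The median SD of log2 CPM ran from 0.761 to 0.877 with libraries left out. It was 0.915 for the first 100 loci, 0.802 for the first 400 and 0.895 with TMM-adjusted sizes. The mean r ran from 0.0304 to 0.0538 with libraries left out. It was 0.0353 for the first 100 loci, 0.0341 with no limit on transcripts and 0.126 with TMM-adjusted sizes. The count of loci whose groups did not overlap ran from 2 to 12 when a library was dropped, or 1% to 6%, while 1.74% to 5.9% of all tested loci did not overlap. The median length was 1061.5 bases for the 200 loci highest in TPM. No named lignin difference changed direction in any setting. These loci were named for their differences in the same libraries, so a kept direction was close to fixed in advance and is no support. For MSTRG.16274 and MSTRG.27900 the kept direction also follows from groups that do not overlap. The alternatives for SD and r over other lists, for overlap, for length and for transcript use were chosen after seeing the data. The cause of these shifts was not tested. With 1 library per entry, spread between entries and within an entry cannot be told apart.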
